A study of Mus musculus with 8 samples.

Results

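*Msln*, *Upk3b*, *Upk1b*, *Lrrn4*, *Bnc1*, *Gpm6a*, *Podxl* and *Krt7* are 8 genes that mark mesothelium. They were taken as a fixed list by gene symbol, and every array probe annotated with 1 of these symbols was followed, which gave 13 of the 45281 probes on the array. Of these 13 probes, 10 could be joined to a measured signal and 8, from 7 genes, were above background on enough arrays to be tested. In sorted *Bapx1* null cells *Krt7* and *Podxl* were higher than in wildtype cells, by 2.14 and 1.73 times. *Lrrn4* was higher too, but it was above background on 1 of 4 wildtype arrays, so its size depended on how the background was handled. *Upk3b*, *Upk1b*, *Bnc1* and *Gpm6a* did not pass the test, and *Msln* was not above background.

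Spleens of E12.5 mouse embryos of strain C57BL/6J;129 were dissected, and the cells that carried EGFP were sorted, in 4 replicates of each genotype with 1 single-colour Illumina array per replicate. *Bapx1*, now named *Nkx3-2*, encodes a homeobox transcription factor of the early spleen, and the comparison addresses which genes differ in these cells when it is lost. Wildtype embryos carried the tm2.Tlu allele, which the study writes as heterozygous, in which an IRES in the 3′ UTR of *Bapx1* drives translation of EGFP, so that both proteins are made. Null embryos were homozygous for the tm4.Tlu allele, in which EGFP follows the *Bapx1* start codon directly. All 8 samples therefore carried EGFP under the *Bapx1* promoter and were taken by the same sort. The reporter allele changed together with the genotype, and its effect, any effect on which cells were sorted and loss of *Bapx1* cannot be told apart. The number of embryos behind each replicate is not given, so the p-values measure the spread between these samples only. The sex of the embryos is not given either, and *Xist*, which is read for sex, did not overlap between the genotypes. Sex thus cannot be told apart from genotype here.

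Mesothelium is the flat epithelial layer that covers the organs and the walls of the body cavities. In the embryo it lies directly over the splenic mesenchyme, and mesothelial cells of several organs delaminate and give rise to mesenchymal cells below them. Mesothelial cells hold both epithelial proteins, such as keratins, and mesenchymal proteins, such as vimentin, and they make retinoic acid. None of the 8 markers is found in mesothelium alone. Uroplakins also coat the bladder epithelium, podocalyxin also lines vessels and covers kidney podocytes, and the neuronal glycoprotein gene *Gpm6a* is also used in the brain.

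Stretches of 5 promoters are shown because their genes are members that rose (*Lrrn4*, *Krt7*) or did not pass the test (*Upk3b*, *Bnc1*, *Gpm6a*), and because they hold letters known to be bound by factors of mesothelium or of the *Bapx1* class. Promoters of 5 members were found in the RefSeq table of build GRCm38.p6, from 250 bases before to 50 bases after the start, with 2 starts for *Gpm6a*. The letters searched for on both strands were TAAGTG for NK homeobox factors (the class of *Bapx1*), GGAATG for TEAD factors, GTGGGNG for WT1 and EGR factors, AGATAA for the GATA family and TATAAA for the core promoter element of like name. Capitals mark the match, which stands as its reverse complement for *Upk3b*, *Bnc1* and the NK homeobox letters of *Gpm6a*.
Lrrn4, TEAD: gggctggagctgGGAATGccaggtctatgg
Lrrn4, WT1 and EGR: gacggggaggaGTGGGGGtggggctggagc
Krt7, WT1 and EGR: ttgcctgaggtGTGGGTGtctcacgacggc
Upk3b, TEAD: aggaacggaCATTCCgagctggggaagaca
Bnc1, WT1 and EGR: ccgcggggagcCGCCCACttctcctgcgca
Gpm6a, TEAD: ggggtgctgcagGGAATGtatgggggcaat
Gpm6a, NK homeobox: tcctacgcCACTTAataaaatacttattac
The windows are chr2:132881041-132881070 and chr2:132881061-132881090 (minus strand) for *Lrrn4*, chr15:101412188-101412217 (plus strand) for *Krt7*, chr5:136038246-136038275 (plus strand) for *Upk3b*, chr7:81992327-81992356 (minus strand) for *Bnc1*, and chr8:54779297-54779326 and chr8:54954478-54954507 (plus strand) for *Gpm6a*. The TEAD and the WT1 and EGR letters each stood in members that rose and in members that did not pass. A TATAAA match in the second *Gpm6a* promoter is not printed. Among all 32851 promoters listed, 9.2% held TAAGTG, 14.7% GGAATG, 31.6% GTGGGNG, 11.2% AGATAA and 13.6% TATAAA, so that each of these matches is common. Of the 5 members only *Gpm6a* had TAAGTG in these windows, and it did not pass the test. The study gives the *Bapx1* motif as T(G/A)AGTG, and the form TGAGTG was not searched for. A match is a run of letters and not a bound site.

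Levels are given as log2 intensity after background correction and quantile normalization (neqc), and a probe was taken as above background on an array at a detection p under 0.05. The lowest log2 level above background was between 5.07 and 5.2 on the 8 arrays, and between 42.0 and 44.5% of all probes were above it. Of all 19841 probes tested, 41.9% differed between the genotypes at an adjusted p under 0.05 (limma, Benjamini-Hochberg over all probes tested). Of the 10766 genes counted by their brightest probe 42.5% were called, 25.7% as higher and 16.8% as lower in null cells, with a median log2 difference over these genes of 0.09. Members were called at about this rate, with 3 of 7 genes higher and none lower by the same test (0 lower also at an unadjusted p under 0.05 and by an ordinary 2-group test) and a median of 0.19. Null lay above wildtype on all arrays for the same 3 of the 7, against 24.3% of all genes. *Lrrn4* entered the test through the null arrays, where it was high, so that its place in these counts follows in part from the filter. The spleen labels were checked with *Tcf21*, *Nkx2-5* and *Barx1*, factors of the splenic mesenchyme, which were above background on all 8 arrays, while the spleen factor gene *Tlx1* was not on any. *Bapx1* itself was above background on no wildtype array and on all 4 null arrays at both of its probes, at least 3.79-fold higher at the brighter (adjusted p = 1.38e-05, limma). This direction is opposite to what the labels would give for *Bapx1* RNA, since the wildtype cells were sorted for EGFP from the same locus. By in situ hybridization the study reports that *Bapx1* expression was lost in null spleen, and that it rose in null vertebral column. The probes' positions relative to the EGFP insertion were not used, so it is not known whether they lie in a part that the null allele still transcribes. *Nkx2-5*, another spleen gene, was 4.96-fold lower on the arrays labelled null (adjusted p = 9.02e-05, limma). *Barx1* was 2.78-fold higher there (adjusted p = 0.000274, limma) and 2.05-fold higher at its other probe. *Tcf21* did not pass the test (adjusted p = 0.752, limma). Every direction here rests on the labels, and wildtype and null stand for the arrays labelled so.

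**Figure D1:**
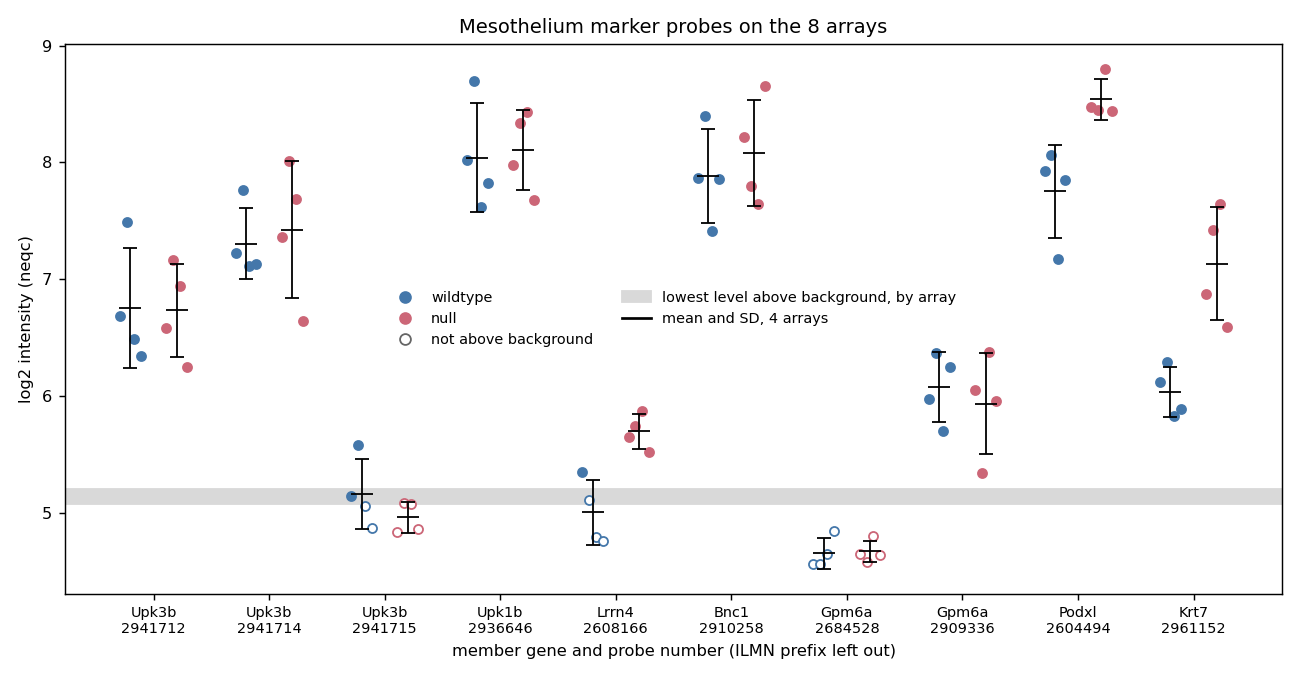
Log2 intensity of the 10 member probes joined to a signal, on 4 wildtype and 4 null arrays, with bars for the mean and SD and open circles for values not above background. The null arrays lie above all wildtype arrays for Lrrn4, Podxl and Krt7, and the genotypes overlap at every other probe.

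*Krt7* encodes a type II keratin of simple epithelia and is a common marker of mesothelial cells. Its log2 level was 6.12, 6.29, 5.83 and 5.89 on wildtype arrays 1 to 4 and 6.87, 7.42, 7.64 and 6.59 on null arrays 1 to 4. The lowest null array was above the highest wildtype array, and null replicates 2 and 3 were the highest. The mean was 6.03 ± 0.21 in wildtype and 7.13 ± 0.48 in null cells (SD, n = 4), a log2 difference of 1.10 ± 0.23 (SE), which is 2.14-fold (95% interval 1.5 to 3.04, adjusted p = 0.00573, limma). This was the largest difference among the 8 member probes tested.

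The type I and type II keratins that pair in simple epithelia rose with it. *Krt18*, a type I keratin, was between 5.10 and 5.63 on wildtype arrays and at 6.88, 7.22, 7.64 and 6.25 on null arrays 1 to 4, a 3.09-fold rise (adjusted p = 0.00226, limma). *Krt8*, its usual type II partner, was at 6.24, 7.05, 6.31 and 6.15 on wildtype arrays and at 7.93, 8.62, 8.87 and 6.88 on null arrays, a 3.12-fold rise (adjusted p = 0.012, limma), with null replicate 4 below wildtype replicate 2. All 3 keratins were highest on null replicate 3 and lowest, within the null arrays, on null replicate 4. *Krt19*, a type I keratin of both mesothelium and gland ducts, was not above background on any array.

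*Podxl* encodes podocalyxin, a sialic acid rich membrane protein that keeps the free cell surface apart from its neighbours. Its log2 level was 7.93, 8.06, 7.17 and 7.85 on wildtype arrays and 8.47, 8.45, 8.80 and 8.44 on null arrays. The genotypes did not overlap, wildtype replicate 3 was the lowest array, and null replicate 3 stood above the other null arrays, which were within 0.03 of each other. The mean rose from 7.75 ± 0.40 to 8.54 ± 0.18 (SD, n = 4), by 0.79 ± 0.19 (SE) on the log2 scale or 1.73-fold (95% interval 1.28 to 2.33, adjusted p = 0.0113, limma). Without normalization between arrays it was 0.53 and did not pass (adjusted p = 0.0654, limma).

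Podocalyxin binds ezrin through the scaffold protein encoded by *Slc9a3r1*, and it has 2 close relatives, endoglycan (*Podxl2*) and *Cd34*. *Slc9a3r1* rose 2.62-fold, from 8.41, 8.98, 8.23 and 8.75 on wildtype arrays to 9.99, 10.12, 10.11 and 9.70 on null arrays (adjusted p = 0.000578, limma), with no overlap. Its relative *Slc9a3r2* did not pass the test (log2 difference -0.31, adjusted p = 0.17, limma). *Podxl2* rose 1.62-fold, from 8.05 ± 0.28 to 8.75 ± 0.31 (SD, n = 4, adjusted p = 0.0154, limma), and the genotypes overlapped, since null replicate 4 at 8.36 was below wildtype replicate 3 at 8.44. It did not pass with median centring (0.54, adjusted p = 0.0552) or without normalization between arrays (0.43, adjusted p = 0.142, limma). *Cd34*, a marker of vessels and blood stem cells, did not pass the test (log2 difference 0.53, adjusted p = 0.0821, limma).

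*Lrrn4* encodes a membrane protein with leucine rich repeats. Its log2 level was 5.35, 5.11, 4.79 and 4.76 on wildtype arrays, above background on replicate 1 only, and 5.65, 5.74, 5.87 and 5.52 on null arrays, all above background. The genotypes did not overlap on this scale, but all 8 values lay close to the background. The mean rose from 5.0 ± 0.28 to 5.70 ± 0.15 (SD, n = 4), by 0.69 ± 0.15 (SE) on the log2 scale (adjusted p = 0.00656, limma). With 3 of 4 wildtype values not above background this size is set by the handling of the background, and the difference was 0.37 with an offset of 50, 1.42 with no background correction and 1.38 in the value table. In the signals before normalization the genotypes overlapped, with 33.0, 17.5, 8.8 and 9.0 on the wildtype arrays and 24.4, 37.2, 36.0 and 29.1 on null arrays, so that wildtype replicate 1 was above null replicates 1 and 4. Without normalization between arrays the difference was 0.49 (adjusted p = 0.0755, limma). Its relative *Lrrn1*, which is used in the developing nervous system, had a log2 difference of 0.13 ± 0.21 (SE, adjusted p = 0.642, limma).

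*Upk3b* and *Upk1b* encode uroplakins, the first a protein that spans the membrane once and the second a tetraspanin, which together form a pair in the cell membrane. The brighter *Upk3b* probe was at 7.22, 7.76, 7.11 and 7.13 on the wildtype arrays and 7.36, 8.01, 7.69 and 6.64 on null arrays. Null arrays held both the highest and the lowest value, and the log2 difference was 0.12 ± 0.28 (SE, 95% interval -0.51 to 0.75, adjusted p = 0.751, limma). A second probe was at 6.68, 7.49, 6.49 and 6.34 on the wildtype arrays and 6.58, 7.16, 6.94 and 6.25 on null arrays, with a difference of -0.02 ± 0.27 (SE, 95% interval -0.63 to 0.60, adjusted p = 0.970, limma). At both probes wildtype replicate 2 was the highest wildtype array and null replicate 2 the highest null array. The third *Upk3b* probe was above background on 2 wildtype arrays and no null array, at 5.16 ± 0.30 and 4.96 ± 0.13 (SD, n = 4), and was not tested.

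*Upk1b* was at 8.02, 8.70, 7.62 and 7.82 on the wildtype arrays and 7.98, 8.34, 8.43 and 7.68 on null arrays. The ranges of both genotypes overlapped almost fully, and the log2 difference was 0.07 ± 0.25 (SE, 95% interval -0.49 to 0.63, adjusted p = 0.846, limma). The interval runs from 0.71 to 1.54 times the wildtype level. Both uroplakins were high on the same arrays, wildtype replicate 2 and null replicates 2 and 3. The other uroplakins, whose products are the partners of these in bladder epithelium, were dim or not above background. *Upk1a* was at 5.61 ± 0.13 in wildtype and 5.61 ± 0.18 in null cells (SD, n = 4, adjusted p = 0.996, limma), and *Upk2* and *Upk3a* were not above background on any array.

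*Bnc1* encodes basonuclin, a zinc finger transcription factor of stratified epithelia, germ cells and mesothelium. It was at 7.87, 8.40, 7.41 and 7.86 on the wildtype arrays and 8.22, 7.80, 7.64 and 8.65 on null arrays, which overlapped. The log2 difference was 0.19 ± 0.26 (SE, 95% interval -0.39 to 0.77, adjusted p = 0.575, limma). Unlike the keratins, it was highest on null replicate 4 and lowest, among null arrays, on null replicate 3. Its relative *Bnc2*, a zinc finger gene of mesenchymal cells, had a difference of 0.33 (adjusted p = 0.078, limma) at its brighter probe and 0.30 (adjusted p = 0.0366, limma) at the other, where null was above wildtype on all arrays.

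*Gpm6a* encodes a membrane glycoprotein that forms thin cell protrusions. Its brightest probe was at 5.97, 6.37, 5.70 and 6.25 on the wildtype arrays and 6.05, 5.34, 6.38 and 5.96 on null arrays. Null replicate 2 was the lowest and null replicate 3 the highest of the 8 arrays, and the log2 difference was -0.14 ± 0.23 (SE, 95% interval -0.65 to 0.37, adjusted p = 0.637, limma). A second probe, at 4.65 ± 0.13 and 4.66 ± 0.09 (SD, n = 4), was not above background on any array. Its relative *Gpm6b*, used in glia and other cells, rose 2.58-fold from 6.16 ± 0.41 to 7.53 ± 0.26 (SD, n = 4, adjusted p = 0.00157, limma), and 1.42-fold at its other probe.

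*Msln* encodes mesothelin, the surface protein after which the tissue is often stained, and has 1 probe on the array. This probe, the second *Upk1b* probe and the third *Gpm6a* probe share 1 profile in the value table, that of a signal at or under 1 on every array, and 8079 rows of the signal table fit it. The rows could not be told apart, and none was above background on any array, with a lowest detection p of 0.3547. The value table lists -0.39, 0.02, -0.01 and -0.18 on the wildtype arrays and 0.43, -0.01, 0.16 and 0.01 on null arrays for each of these 3 probes, and these values follow the scaling of the arrays and carry no level of the genes. *Msln* was thus not detectable with this probe, and no difference was tested.

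**Figure D2:**
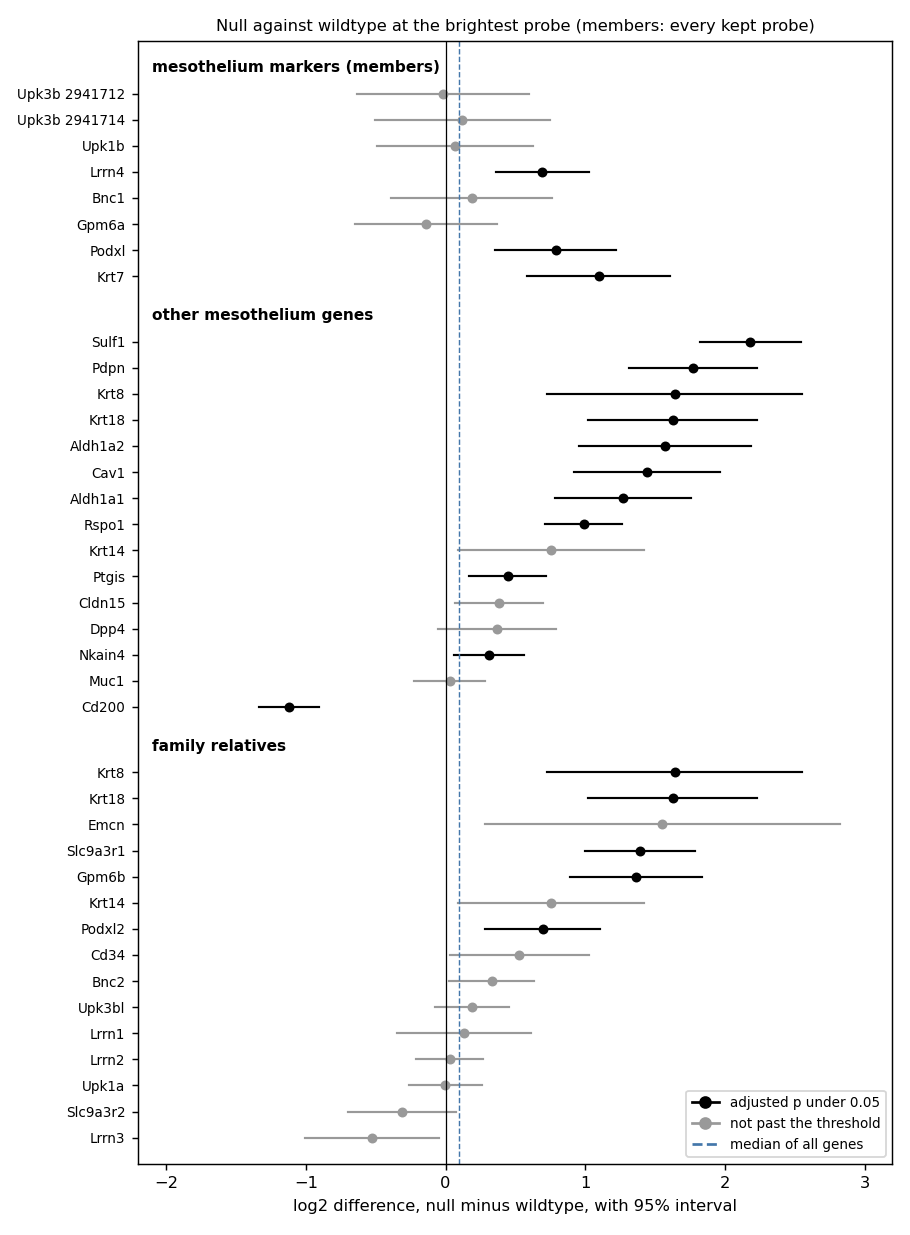
Log2 difference, null minus wildtype, with its 95% interval, for each member probe tested and for the genes of the lists of other mesothelium genes and of family relatives at their brightest probe. Black marks an adjusted p under 0.05, and the dashed line is the median of all genes, 0.09.

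Most of the tested mesothelium genes other than the members rose. Of 27 such genes 23 had a probe and 15 were tested, of which 10 were higher, 1 was lower and 4 did not pass, against 25.7% higher among all genes, and the median log2 difference was 0.99. Of the 10 higher genes *Rspo1* and *Aldh1a1* were above background on no wildtype array and entered the test only through the null arrays, where they were high. *Krt8* and *Krt18* are among the 10 and are counted again with the family relatives and with the gut and pancreas epithelium. The list was chosen with earlier results of these data known, so this count describes its genes and is not an independent test. *Sulf1*, which removes sulfate from heparan sulfate outside the cell, rose 4.54-fold, from 9.49, 9.60, 9.16 and 9.35 on wildtype arrays to 11.76, 11.36, 11.31 and 11.90 on null arrays (adjusted p = 3.55e-05, limma), and 4.03-fold at its other probe. *Pdpn*, a mucin-like protein of mesothelium and lymphatic vessels, rose 3.42-fold, from 7.42, 8.34, 7.30 and 7.66 to 9.51, 9.47, 9.46 and 9.37 (adjusted p = 0.000381, limma). Neither overlapped between the genotypes, and the null arrays of *Pdpn* had an SD of 0.06.

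*Aldh1a2*, the main retinoic acid making enzyme of embryonic mesothelium and of splenic mesenchyme, rose 2.97-fold, from 5.27, 6.63, 5.40 and 5.98 on wildtype arrays to 7.21, 7.60, 7.25 and 7.49 on null arrays (adjusted p = 0.00281, limma), and 2.39-fold at its other probe. *Cav1*, the coat protein of caveolae, rose 2.72-fold, from 8.74, 9.66, 8.40 and 8.82 to 10.47, 10.25, 10.29 and 10.38 (adjusted p = 0.00201, limma). Neither gene overlapped between the genotypes, and both were highest in wildtype replicate 2 among wildtype arrays. *Rspo1*, a secreted activator of Wnt signals, was not above background on any wildtype array and was on all 4 null arrays, at least 1.59-fold higher (adjusted p = 0.000537, limma).

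*Cd200*, a membrane protein that restrains myeloid cells, went the other way. It was at 5.75, 5.54, 5.76 and 5.49 on wildtype arrays, and no null array was above background, at least 1.40-fold lower (adjusted p = 8.47e-05, limma). For a gene not above background in a genotype the bound uses the lowest level above background on each of its arrays. *Wt1*, the transcription factor gene most used for mesothelium, had no probe under that symbol and was not analysed here. *Calb2*, *Efemp1* and *Slpi* were not above background on any array. Of 22 family relatives and partners 15 were tested, of which 5 were higher, none was lower and 10 did not pass. Among all genes 25.7% were higher and 16.8% lower. The 5 relatives include *Krt8* and *Krt18*, which are also in the list of other mesothelium genes. At an unadjusted p under 0.05 only *Lrrn3* of the relatives was lower (-0.52, adjusted p = 0.0755, limma), and 0 were by the ordinary 2-group test, and the median over the 15 was 0.53.

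**Figure D3:**
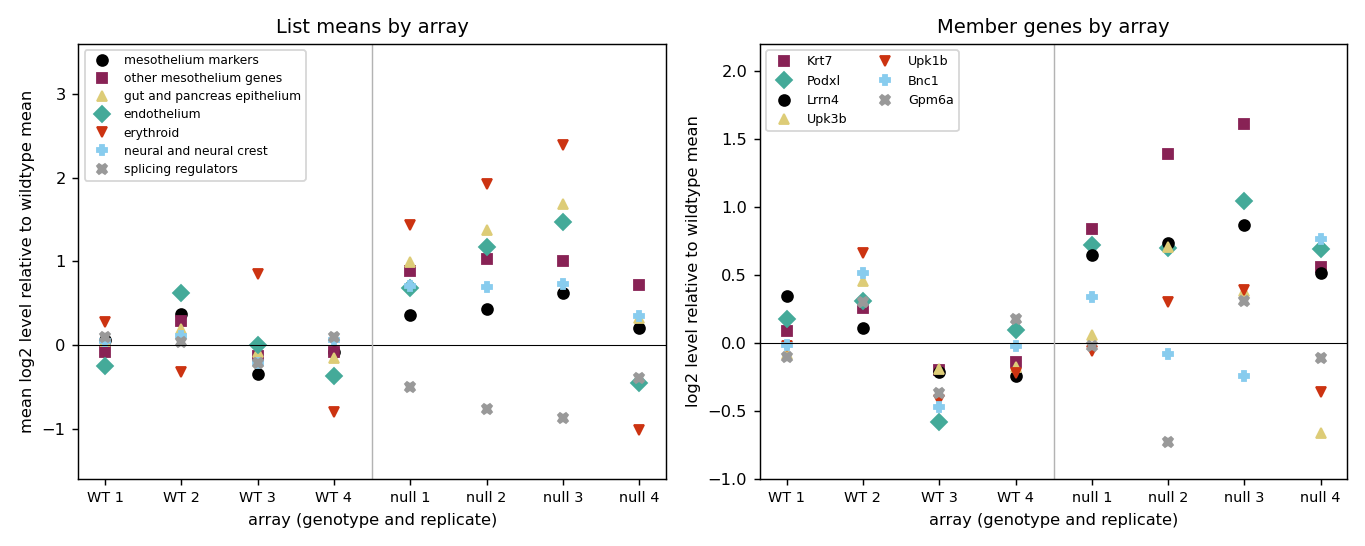
Left, mean log2 level of the genes of each marker list on each array relative to the wildtype mean, and right, the same for each member gene at its brightest probe. Null replicate 4 is the lowest null array for every list shown except the splicing regulators, where it is the highest. Among members it is the lowest null array for Krt7, Podxl, Lrrn4, Upk3b and Upk1b, and the highest for Bnc1.

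Markers of other cells moved between the same arrays. Fewer cells of a type and less RNA per cell cannot be told apart in these bulk samples. The gut and pancreas epithelium list had 5 of 7 tested genes higher (*Krt8* and *Krt18* among them), against 25.7% of all genes. Of these 7 genes, 4 were above background on all wildtype arrays, so that the count follows in part from the filter. The list mean relative to wildtype was between -0.16 and 0.19 on wildtype arrays and 0.99, 1.37, 1.69 and 0.32 on null arrays 1 to 4. *Krt7* and the means of the endothelium and erythroid lists stood in this same order on the null arrays. *Cdh1*, the adhesion protein of epithelia, rose 2.50-fold (adjusted p = 0.0153, limma), and *Foxa2* and *Krt19* were not above background on any array. Of the genes of this list detected on too few arrays for a test, *Cldn4* and *Foxa3* were above background on 3 null arrays, *Cldn3*, *Foxa1* and *Sox2* on 2 and *Pdx1*, *Ptf1a* and *Shh* on 1, all with no wildtype array, and *Ihh* was on 1 wildtype and 2 null arrays. With the mean of this list as a covariate *Krt7* had a log2 difference of 0.20 (adjusted p = 0.571), *Podxl* of 0.47 (adjusted p = 0.435) and *Lrrn4* of 0.35 (adjusted p = 0.41, limma), and 1588 of all probes were called. The list mean itself did not overlap between the genotypes, and its part in the rise of the members was not tested beyond this.

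The endothelium list bears on *Podxl*. Its mean was between -0.37 and 0.62 on wildtype arrays and 0.68, 1.17, 1.47 and -0.45 on null arrays, with 0 of 13 tested genes higher and 1 lower (limma, with 5 higher at an unadjusted p under 0.05, and 0 by an ordinary 2-group test), and *Kdr*, *Tie1* and *Erg* were not above background on any array. On null replicate 3 that mean was the highest of the 8 arrays and so was *Podxl*, at 8.80. On null replicate 4 the mean was below every wildtype array, and *Podxl* was at 8.44, against 8.45 and 8.47 on null replicates 2 and 1. The part of endothelial cells in the level of *Podxl* was not tested. The erythroid list ran from -0.80 to 0.85 on the wildtype arrays and from -1.02 to 2.39 on null arrays, with 0 of 7 tested genes higher and 1 lower (limma, with 3 higher at an unadjusted p under 0.05 and 0 by the ordinary test). The neural and neural crest list ran from -0.22 to 0.11 and from 0.35 to 0.73, with 4 of 9 higher and 2 lower. Of all genes 25.7% were called higher and 16.8% lower. *Sox10*, a factor of neural crest and glia, rose 6.18-fold (adjusted p = 0.0191, limma). It was above background on 2 wildtype arrays, and the genotypes overlapped, since null replicate 4 at 5.26 was below wildtype replicate 2 at 5.51. *Stmn2*, of neurons, rose 5.49-fold (adjusted p = 0.000123, limma). The 2 lower genes were *Gap43*, 1.81-fold (adjusted p = 0.000314, limma), and *Ednrb*, 1.24-fold (adjusted p = 0.0457, limma) and 1.46-fold at its other probe. *Phox2a*, of autonomic neurons, was above background on no wildtype and all 4 null arrays, at least 2.25-fold higher (adjusted p = 0.00913, limma). *Phox2a* thus entered the test only through the null arrays, where it was high. *Ret* and *Elavl3* were above background on no wildtype and 3 null arrays, and *Tubb3* on none. The list's part in the levels of *Gpm6a* and *Lrrn4* was not tested.

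The urogenital epithelium list, which bears on the uroplakins, ran from -0.30 to 0.19 on the wildtype arrays and from -0.71 to -0.52 on null arrays, with 0 of 3 tested genes higher (0 also unadjusted and by the ordinary test) and 2 lower (limma), and *Pax2* and *Pax8* were not above background on any array. The mean of the spleen mesenchyme list stayed between -0.09 and 0.11 on all 8 arrays, with 3 of its 10 tested genes higher and 3 lower. Among the higher genes is *Bapx1* itself (log2 difference 2.41), which entered the test only through the null arrays. The list mean holds this altered gene, and a mean without it was not computed. *Nkx2-5* had the largest fall of this list. *Vim*, which encodes vimentin, fell 2.58-fold with no overlap between the genotypes (adjusted p = 0.00291, limma). For comparison with both lists, 25.7% of all genes were called higher and 16.8% lower. The members as a list had means of 0.06, 0.37, -0.35 and -0.08 on the wildtype arrays and 0.36, 0.43, 0.62 and 0.20 on null arrays, which overlapped, since wildtype replicate 2 was above null replicates 1 and 4. The other mesothelium genes did not overlap, from -0.13 to 0.29 on the wildtype arrays and from 0.72 to 1.03 on null arrays.

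Splicing regulators were lower in null cells at 16 of 31 tested genes, against 16.8% of all genes. They were higher at 0 (0 also at an unadjusted p under 0.05 and by an ordinary 2-group test, limma otherwise), against 25.7% of all genes. The list means were 0.09, 0.03, -0.22 and 0.10 on the wildtype arrays and -0.50, -0.77, -0.88 and -0.40 on null arrays. Wildtype replicate 3 and null replicates 2 and 3 were the lowest within their genotypes. Without these 3 arrays, a choice made after the values were seen, *Krt7* and *Podxl* were still called and *Lrrn4* was not (log2 difference 0.51, adjusted p = 0.0641, limma). With the list mean as a covariate *Krt7* had a difference of 0.28 (adjusted p = 0.738), *Podxl* of 1.01 (adjusted p = 0.204) and *Lrrn4* of 0.57 (adjusted p = 0.349), while *Bnc1* had 1.39 and passed (adjusted p = 0.0426, limma). This list mean did not overlap between the genotypes, so that this fit separates the covariate from the genotype poorly. *Xist* was between 10.76 and 12.44 on the wildtype arrays and between 9.18 and 9.91 on null arrays, and its part in these values was not tested.

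**Figure D4:**
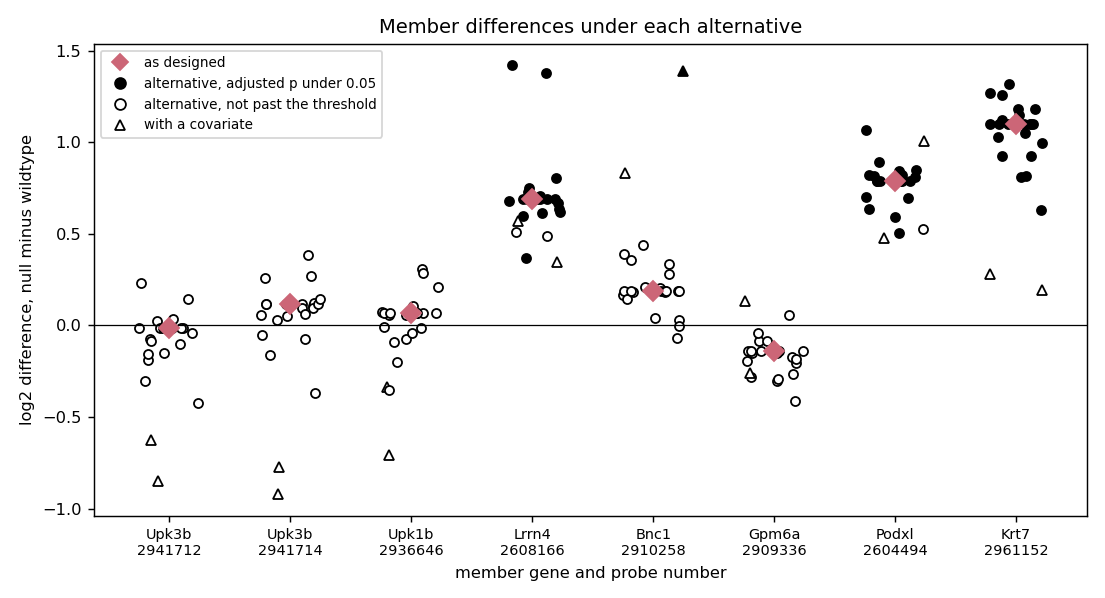
Log2 difference, null minus wildtype, of each member probe tested, as designed (diamond) and under each alternative (circles, and triangles where a list mean was a covariate), filled where the adjusted p was under 0.05. Krt7, Podxl and Lrrn4 lie above 0 under every alternative, and the other 5 probes lie on both sides of 0.

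The genes whose pattern over the 8 arrays was nearest to each member, by the root mean square distance of log2 profiles centred on the wildtype mean, were other members in 1 case. For *Upk1b* the nearest was the second *Upk3b* probe, at a distance of 0.135, followed by *Tbxas1* and *Sla*. For *Upk3b* they were *Rufy3* (0.09), *Pde4d* and *Napb*, for *Bnc1* *Shisa2* (0.148), *Fam13c* and *Gabrb1*, and for *Gpm6a* *Lonrf1* (0.147), *Kif23* and *Sf3b6*. As this distance includes the difference between the genotypes, the genes nearest to the 3 members that rose had to rise as well. These were *Defa31* (0.0923), *Tagln3* and *Thsd4* for *Krt7*, *Minar2* (0.10), *Kcnn1* and *Lpl* for *Podxl*, and *Smpdl3b* (0.0969), *Tubb2b* and *Enpp4* for *Lrrn4*. These distances describe 8 arrays and were not tested.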

How the data were processed

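The authors summarized the intensity of each probe in GenomeStudio (version not given in the sources used here), subtracted the background there and deposited these signals with no scaling between arrays. The detection p-value columns, deposited by the authors beside them, hold 1 minus p and were turned round. By comparison with the signals, the deposited log2 values of the value table are the log2 signal floored at 1, less array and probe baselines whose source is not stated (column medians from -0.20 to 0.24), and were used as an alternative. The study's later steps in Partek were not part of either table. RNA was extracted with TRIzol from dissociated, sorted cells and amplified before labelling.

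The signal table lists bead addresses, which were matched to probe names through their profile over the 8 arrays (tolerance 0.0001 on log2 values), with 34536 of 45281 matched 1 to 1, among them all 19841 probes that were tested, those above background (detection p under 0.05) on 4 arrays or more. Gene symbols came from the platform annotation. Signals were normalized by neqc, with the negative controls estimated from detection p, an offset of 16 and quantile normalization, and the genotypes were compared by lmFit and eBayes in a model with no other factor (limma 3.58.1, statmod 1.5.0, R 4.3.3), two-sided, with Benjamini-Hochberg adjustment over all probes tested. A gene was counted by its brightest tested probe. Median signals were between 8.2 and 14.5, from 29 to 30.8% of signals were below 0, and the number of arrays limits the precision. Tested on simulated data of 19841 probes, the fit called 31 of 67 probes set to differ 1.5-fold, 49 of 67 at 2-fold, 66 of 66 at 4-fold and 5 of 19641 set to be equal.

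Named genes are all members at every probe, up to 6 genes with the largest absolute moderated t among those called in the lists of other mesothelium genes and of family relatives, *Wt1*, *Aldh1a2*, *Krt8*, *Krt18*, *Krt19*, *Upk1a*, *Upk2*, *Upk3a*, *Bnc2*, *Gpm6b*, *Podxl2* and *Lrrn1*, up to 3 defining genes of each other marker list, and the 3 nearest genes by profile. *Cd34*, *Lrrn3*, *Aldh1a1*, *Cldn3*, *Cldn4*, *Foxa1*, *Foxa3*, *Sox2*, *Pdx1*, *Ptf1a*, *Shh*, *Ihh*, *Ret*, *Elavl3*, *Tubb3*, *Calb2*, *Tlx1*, *Efemp1*, *Slpi*, *Vim* and *Slc9a3r2* were named after their values were seen. So were *Gap43*, *Ednrb*, *Eif2s3y*, *Kdm5d* and *Uty*. The members and lists were chosen with earlier results of these data known. Alternatives were other background, scaling and filter settings, the value table, gene-level fits, an ordinary 2-group test, the replicate number as a block, the splicing regulators as a covariate, and each array left out in turn. Leaving out 3 arrays together and the epithelium list as a covariate were chosen after the data were seen.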

Additional observations from a re-analysis of the deposited data

Results flagged for a closer look

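*Podxl* was at 8.80 on null replicate 3, apart from the other 3 null arrays at 8.44 to 8.47, a gap that took 0.91 of the range of the group, past the 95% critical value of Dixon's ratio for 4 values. It was the only such array among 16 groups of member probes and genotypes, and chance gives about 1 in 20. Without null replicate 3 *Podxl* was still called.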

How the results depend on the processing

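*Krt7*, *Podxl* and *Lrrn4* were above 0 under every alternative. Members called stayed at 3 with each array left out in turn (3 to 3), and fell to 1 without normalization between arrays (*Krt7*), 1 with the splicing regulators as a covariate (*Bnc1*) and 0 with the epithelium list as a covariate (limma, with 2 at an unadjusted p under 0.05). *Lrrn4* was not tested at a detection p under 0.01 on all arrays. Without normalization *Podxl* had 0.53 (adjusted p = 0.0654) and *Lrrn4* 0.49 (adjusted p = 0.0755, limma). Probes called fell from 8312 to 1211 and 1588 with these covariates, and were 5718 to 9890 with 1 array left out. Other mesothelium genes called, 11 as designed, were 7 at a detection p under 0.01 on all arrays, 4 with either covariate and 9 to 12 with 1 array left out. Relatives called, 5 as designed, were 8 with the replicate number as a block, 1 with either covariate, and 5 to 9 with 1 array left out, 9 of them without null replicate 4. *Krt8* and *Krt18* belong to both of these lists and to the epithelium list, so the counts with the epithelium covariate adjust them in part for themselves. The replicate number as a block changed no member call and gave 3 members, 14 other mesothelium genes and 8847 probes. The deviations of same-numbered arrays correlated at 0.168, 0.069, 0.377 and 0.408. Of these, 3 are over 0.1 and that of replicate 2 is not, and wildtype replicate 3 correlated best with null replicate 2 (0.385), so that the numbers may mark something shared but were not read as pairs of samples. The share of called probes that were lower in null cells was 48.5% as designed, 26.9% with median absolute deviation scaling, 69.6% with median centring and 81% without normalization between arrays, where the median of all probes was 0.29, -0.08 and -0.19.

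Differences that changed sign were near 0 as designed or changed with a covariate, and the cause was not tested. *Upk3b* at its second probe was 0.0237 with median absolute deviation scaling and -0.16 to 0.23 with 1 array left out. *Upk3b* at its brighter probe was -0.05 with median centring, -0.16 without normalization, -0.77 and -0.92 with the splicing and epithelium covariates, -0.37 without 3 arrays and -0.0747 to 0.38 with 1 left out. *Upk1b* was -0.0914, -0.20, -0.34, -0.71, -0.35 and -0.0734 to 0.29 in the same order. *Bnc1* was -0.0702 without normalization and -0.00175 to 0.36 with 1 array left out. *Gpm6a* was 0.14 with the splicing covariate and -0.29 to 0.057 with 1 left out. *Upk1a* was 0.00041 with an offset of 50, 0.32 and 0.24 with the covariates, 0.025 without 3 arrays and -0.0799 to 0.0541 with 1 left out. *Lrrn1* was -0.0214 with median centring, -0.13 without normalization and -0.00677 to 0.29 with 1 left out. With the splicing covariate *Podxl2* was -0.19 and *Krt8* -0.00434, and with the epithelium covariate *Krt8* was -0.0503. The epithelium list mean holds *Krt8* itself, so this last fit adjusted the gene in part for itself and its value cannot be read.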
